A study of Mus musculus with 4 samples.

Results

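The genes described here are the 8 genes of MHC class II presentation that the deposited gene list holds by symbol: *H2-Aa*, *H2-Ab1*, *H2-Eb1*, *Cd74*, *H2-DMa*, *H2-DMb1*, *H2-DMb2* and *Ciita*. They are 8 of 27998 genes, taken by symbol from a list that was drawn up with earlier results of these data known. Transcripts of single cells were counted in droplets for CD3+ T cells enriched from the blood of C57BL/6 mice on day 18 after subcutaneous injection of MC-38, a mouse colon carcinoma cell line. The mice were female and between 6 and 8 weeks old at the start, and all 4 groups carried the tumor. The untreated group received no antibody. The anti-PD-L1 group received antibody that blocks PD-L1 on days 10, 13 and 17, and the anti-OX40/CpG group received agonist antibody to OX40 with the adjuvant CpG on day 7. The PDOX group received all of these. Each group is 1 library, which the deposited design text ascribes to 1 mouse each, so a treatment cannot be told apart from its mouse or its library. The label OX40 was read as anti-OX40/CpG, the regimen the study describes.

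MHC class II molecules present peptides from the endosomes to CD4+ T cells. *H2-Aa* and *H2-Ab1* encode the alpha and beta chain of I-A, and *H2-Eb1* encodes the beta chain of I-E. C57BL/6 mice lack a functional I-E alpha chain, so the *H2-Eb1* transcript is made without the I-E dimer. *Cd74* encodes the invariant chain, which fills the peptide groove until it is degraded. *H2-DMa* encodes the alpha chain and *H2-DMb1* and *H2-DMb2* encode the beta chains of H2-M, which exchanges the remaining invariant chain fragment for peptide. *Ciita* encodes the master coactivator of these genes. Professional presenting cells such as B cells, dendritic cells and part of the monocytes express the pathway, and resting mouse T cells are taken not to present by it.

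The T cells had been purified by negative selection with a Pan T cell kit, used on 2 consecutive occasions, so every presenting cell in these libraries is one that the selection left behind. Of 5434 barcodes, 5299 had at least 200 expressed genes and were kept, between 784 and 1559 per library. The median kept cell held between 1434.5 and 1618 UMIs (unique molecular identifiers, which count transcripts) outside mitochondrial, ribosomal and hemoglobin genes, and 16 barcode sequences occurred in more than 1 library, none of them in the B or monocyte gate. Cells were placed in a gate by UMIs of at least 2 markers of 1 cell type and fewer than 2 of every other, apart from NK markers on T cells, and none of the 8 genes was a gate marker. The T gate held 4227 cells (79.8% of the kept cells), the B gate 154, the monocyte gate 115 and the NK gate 74. All 10 detected B markers and all 11 monocyte markers were found in their own gates, and each also had UMIs in the T gate. These markers define the gates, so their presence and the levels that follow were largely set in advance. The summed B marker level was between 103 and 206 UMIs per 10000 in the B gate of the 4 libraries and at most 1.06 in the T gate. The summed monocyte marker level was between 37.3 and 64.7 in the monocyte gate and at most 1.05 in the T gate.

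The B gate was 2.91% of the kept cells and held 58.7% of all UMIs of the 8 genes. The monocyte gate held 15.6%, the T gate 8.34% and the NK gate 0.120%. The remaining cells that no gate took held 16.9%, which are described further on. This order did not hold in each library. In the anti-OX40/CpG library the B gate held 28.4%, less than the 40.3% in cells outside the gates, and in the untreated library the monocyte gate held 4.12% and the T gate 7.94%. Neutrophils, with 48 cells, held 1 UMI of the 8 genes in all. A single cell met the pDC gate, in the untreated library, and it held 43 such UMIs.

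Levels are given below as UMIs of a gene per 10000 UMIs of the gate, and every interval is an exact 95% interval for counting error only, since the cells of a library are not replicates. Throughout, libraries come in the order of the opening, from untreated to anti-PD-L1, then anti-OX40/CpG, then PDOX. In the B gate, *Cd74* stood at 342 (326 to 359), 327 (315 to 339), 191 (170 to 215) and 367 UMIs per 10000, and at least 1 UMI was found in every one of the 154 cells. *H2-Aa* stood at 60.2, 74.4, 40.003 and 82.6 UMIs per 10000. *H2-Ab1* stood at 57.4, 53.2, 38.0 and 70.9, and *H2-Eb1* at 43.0, 48.1, 34.1 and 57.1. The anti-OX40/CpG library was the lowest and the PDOX library the highest for each of these 4 genes, but the anti-OX40/CpG B gate held only 8 cells, against 38, 65 and 43 in the others.

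The H2-M chains were lower in the same cells. *H2-DMa* stood at 7.92, 9.39, 7.21 and 12.97 UMIs per 10000 in the B gate. *H2-DMb2* stood at 15.0, 15.8, 1.97 and 19.8, the value of 1.97 coming from 3 UMIs, and *H2-DMb1* at 3.17, 1.97, 2.62 and 2.59. *H2-DMb1* thus differed little between libraries, within its counting intervals, whereas *H2-DMb2* was lowest in the anti-OX40/CpG library. *Ciita* was found in between 12.3% and 16.3% of B gate cells, with 26 UMIs in all, and stood at 1.19, 1.16, 1.31 and 1.597.

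**Figure D1:**
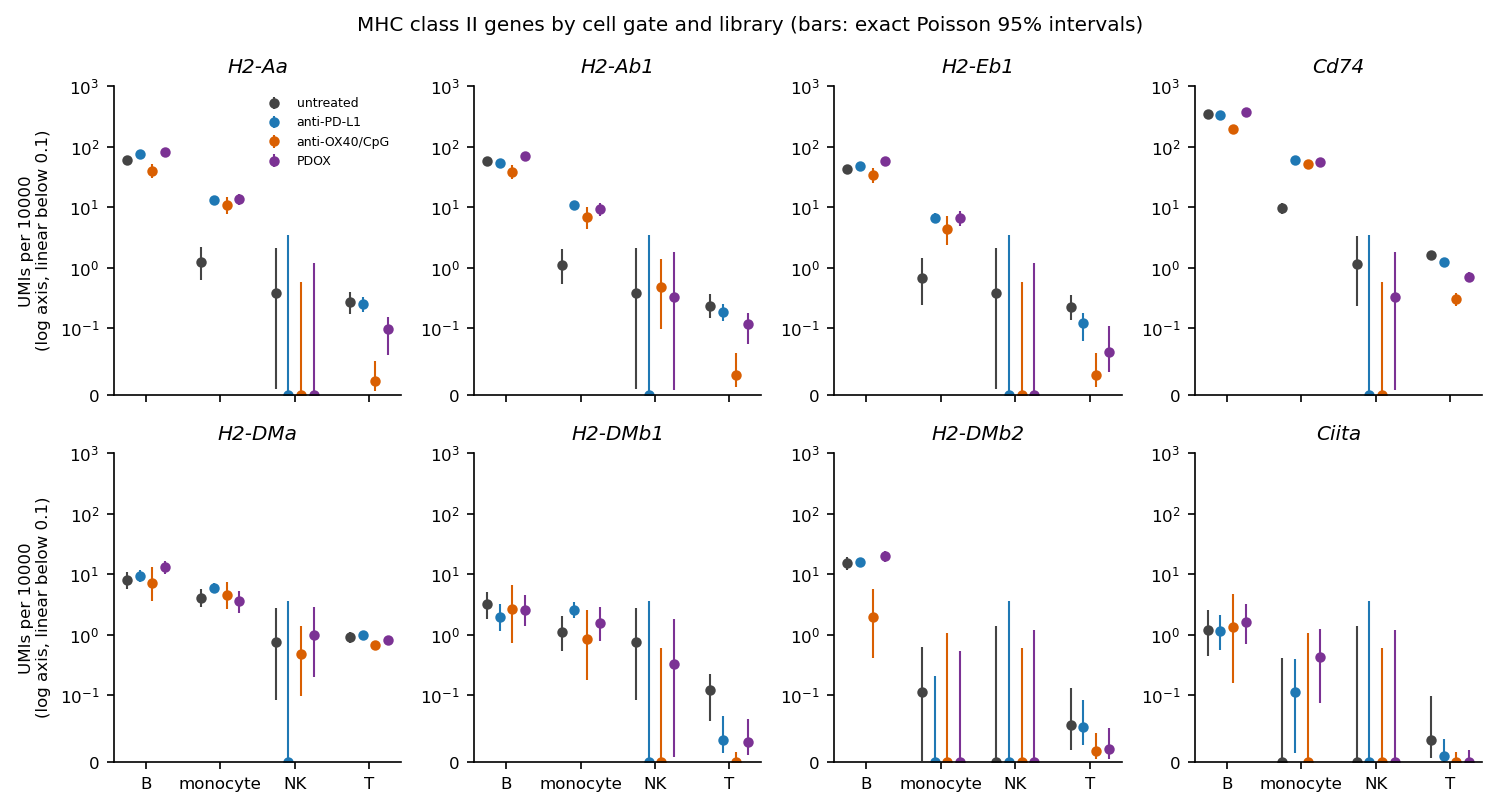
Level of each of the 8 genes in the B, monocyte, NK and T gates, in UMIs per 10000 on a log axis that is linear below 0.1. Each point is 1 library with its exact Poisson 95% interval. For *H2-Aa*, *H2-Ab1*, *H2-Eb1* and *Cd74* the B gate is highest in every library, the untreated monocyte point lies below the other 3 monocyte points, and *H2-DMb2* is near 0 outside the B gate, whereas *H2-DMa* has its T gate points between 0.676 and 0.976.

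Within the B gate the class II level was high in nearly every cell. The 8 genes summed had a median per cell of 536, 506, 552 and 561 UMIs per 10000, so the 4 medians lay close together. Of 154 cells, 151 were above 100 per 10000. Summed over cells, the level relative to the untreated library was 1.001 (0.954 to 1.05) for anti-PD-L1, 0.598 (0.541 to 0.659) for anti-OX40/CpG and 1.16 (1.10 to 1.22) for PDOX. The anti-OX40/CpG value rested on 2 of its 8 cells, at 53.1 and 59.4 per 10000, of which the second held 7073 of the gate's 15249 UMIs. Without these 2 cells the ratio was 1.26 (1.13 to 1.39), an alternative chosen after the values were seen.

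Past a change of 2-fold against the untreated library, none of the 7 genes with at least 20 UMIs in the pair of libraries was higher in the B gate under any treatment. Over all genes with as many UMIs, 4.85% were higher for anti-PD-L1, 13.1% for anti-OX40/CpG and 4.36% for PDOX. None was lower for anti-PD-L1 or PDOX, where 3.26% and 4.95% of all genes were. For anti-OX40/CpG, only *H2-DMb2* was lower, at 0.131 times the untreated level (0.0264 to 0.397), where 18.6% of all genes were. With 1 library per treatment, none of these differences could be tested.

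Of the 8 genes, 6 lie on chromosome 17 between 34119693 and 34316674 (GRCm38.p6, the mm10 build), and *Ciita* lies on chromosome 16 between 10480014 and 10531064. The promoters of class II genes carry an X box, bound by RFX and CREB proteins, and a Y box, bound by NF-Y, on which CIITA assembles. RefSeq promoter windows of GRCm38.p6, from 250 bases before to 50 after a listed start, were at hand for 5 of the 8 genes. *H2-Ab1* and *Ciita* had no entry, and position and promoter of *Cd74* are not given here. The following stretches are shown because they are the windows of the 8 genes that hold both elements, in genes that were each higher in the B than in the T gate. *H2-DMa*, whose windows hold neither, was higher there too. Capitals mark the letters TGATTGG (Y box core) and TGATGCT or TGACGTCA (X2-type), which were chosen after the sequences had been seen. They are given 5′ to 3′ on the strand of the gene.
H2-Aa, chr17:34287862-34287923, minus strand: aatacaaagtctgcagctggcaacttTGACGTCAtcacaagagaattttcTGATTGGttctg
H2-Eb1, chr17:34305756-34305817, plus strand: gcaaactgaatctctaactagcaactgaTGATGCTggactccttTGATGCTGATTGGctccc
H2-DMb1, chr17:34153078-34153139, plus strand: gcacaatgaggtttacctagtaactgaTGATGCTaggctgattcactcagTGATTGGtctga
H2-DMb2, chr17:34145107-34145168, plus strand: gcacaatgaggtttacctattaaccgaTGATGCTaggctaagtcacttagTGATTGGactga

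In all 4 stretches the first X2-type element began between 22 and 24 bases before the Y core. The Y core began 50, 61, 63 and 92 bases before the start of the window's entry for *H2-Aa*, *H2-Eb1*, *H2-DMb1* and *H2-DMb2*. For *H2-DMb2* that start lies inside the gene, since the stretch ends at 34145168 and the gene is listed from 34143229. In *H2-Eb1* a second TGATGCT shares its last base with the Y core. Searched on both strands, TGATTGG occurs in 7.82% of all 32851 windows, TGATGCT in 4.27% and TGACGTCA in 1.79%. An X2-type element at most 30 bases before a Y core on the strand of the gene occurs in 17 windows, or 0.052%. Neither of the 2 windows of *H2-DMa* holds any of these letters. Among the other genes of the pathway, *H2-Eb2* holds the pair of elements, and *H2-Oa*, *H2-Ob*, *Rfx5* and *Nfyc* hold the Y core alone, so that 5 of 12 genes with a window hold it. *H2-DMb1* and *H2-DMb2* are neighbors with near-identical stretches, and their transcripts may share reads, so the split of counts between them is uncertain.

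To ask in which cells the genes were expressed, UMIs were summed per library and gate and compared with edgeR's quasi-likelihood test, with the library as a block and Benjamini-Hochberg adjustment over all genes tested. The B gate of the anti-OX40/CpG library and the NK gate of the anti-PD-L1 library had fewer than 10 cells and did not enter. Of the 8 genes, 7 passed the filter on low counts. *Ciita* did not. It passed in 4 of the alternatives, without that filter or with other profiles in the fit, and was higher in the B than in the T gate in each, by between 5.93 and 6.70 on the log2 scale. All 7 were higher in the B gate than in the T gate, where 14.1% of the 2063 genes tested were. The filter largely set this count. Apart from *Cd74*, none of the 7 had a T gate level above 0.976, and they entered through the B or monocyte gate. The 14.1% is therefore not a like-for-like measure. Without the filter, each of the 8 genes was still called higher in the B gate. Of all 14883 genes then tested, 355 were higher and 551 lower. The log2 difference was 8.52 ± 0.59 (SE) for *Cd74*, 8.95 ± 0.61 for *H2-Aa* and 8.73 ± 0.33 for *H2-DMb2* (edgeR adjusted p of 8.0e-10, 6.1e-10 and 1.3e-12). *H2-DMa* differed least, by 3.59 ± 0.21 (edgeR adjusted p of 5.4e-11). The median of the 7 was 8.73, against -0.06 over all genes tested.

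Of the same 7 genes, 6 were higher in the monocyte gate than in the T gate, where 27.8% of all genes were. The filter bears on this count in the same way. The log2 differences of *Cd74* and *H2-Aa* were 5.83 ± 0.54 and 6.18 ± 0.57 (edgeR adjusted p of 1.9e-08 and 1.7e-08), and that of *H2-DMa* was 2.61 ± 0.20 (edgeR adjusted p of 1.0e-09). The exception was *H2-DMb2*, with 1 UMI in the monocyte gates of the 4 libraries (log2 difference -0.30 ± 1.34, edgeR adjusted p of 0.89).

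Between the B and monocyte gates, 6 of 7 genes were higher in the B gate, where 19.3% of all genes were, and none was lower, where 23.0% were. *Cd74* was higher by 2.69 ± 0.52 and *H2-Eb1* by 3.25 ± 0.45 on the log2 scale (edgeR adjusted p of 0.00036 and 1.2e-05). *H2-DMb1* alone did not pass, at 0.25 ± 0.55 (edgeR adjusted p of 0.76). Of the H2-M beta chains, only *H2-DMb2* thus differed between these gates. It passed the filter through the B gate alone, and the split of counts between the beta chains is uncertain. The B gates held 50 UMIs of *H2-DMb1* and 314 of *H2-DMb2*, and the monocyte gates 70 and 1. In the anti-OX40/CpG B gate, which did not enter the test, the counts were 4 and 3.

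The NK gate held few class II UMIs. The 74 NK gate cells held 22 UMIs of the 8 genes, of which 8 were *H2-DMa*, 5 *H2-Ab1*, 4 *Cd74* and 3 *H2-DMb1*, while *H2-DMb2* and *Ciita* had none. For these 2 genes, 3 UMIs over all NK gates would be 0.231 UMIs per 10000. With edgeR, none of the 7 genes was called higher or lower in the NK than in the T gate, where 7.46% and 9.89% of all genes were. The SEs of the log2 differences were between 0.48 (*H2-DMa*) and 4.70 (*H2-DMb2*), so large differences could have been missed. At an unadjusted p under 0.05 the count was 1, *H2-DMb1*, which DESeq2 called higher (edgeR adjusted p of 0.16 and DESeq2 adjusted p of 0.011, between 0.011 and 0.48 over 11 alternatives).

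In the monocyte gate, the class II level differed more between cells than in the B gate. *Cd74* stood at 9.61 (7.69 to 11.9), 60.0 (56.5 to 63.7), 52.3 (45.0 to 60.4) and 56.2 UMIs per 10000. The untreated library was thus the lowest, with intervals that did not meet those of the others. *H2-Aa* stood at 1.23, 13.1, 10.9 and 13.4, *H2-Ab1* at 1.12, 10.8, 6.86 and 9.14, and *H2-Eb1* at 0.670, 6.70, 4.29 and 6.57. *H2-DMa* did not follow this order, with 4.02, 5.92, 4.57 and 3.57. *H2-DMb1* stood at 1.12, 2.55, 0.857 and 1.57, and *Ciita* had 5 UMIs in all, 2 in the anti-PD-L1 and 3 in the PDOX library.

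Against the untreated library, 5 of 6 genes with at least 20 UMIs were past 2-fold higher in the anti-PD-L1 monocyte gate, where 10.3% of all genes were. In the anti-OX40/CpG library these were 4 of 5 genes, where 6.80% of all genes were, and in the PDOX library 4 of 6, where 10.1% were. Summed over the 8 genes, the ratio was 5.55 (4.72 to 6.57), 4.46 (3.66 to 5.45) and 5.08 (4.27 to 6.08). The libraries also differed in the depth of these cells, with medians of 4102, 3482, 2248 and 1670 UMIs per cell, and the part of depth in the ratios was not tested beyond thinning. With each cell thinned to 750 UMIs the ratio was 3.29 for anti-PD-L1, 4.19 for anti-OX40/CpG and 3.50 for PDOX.

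A few cells carried most of these sums. The median cell of the monocyte gate stood at 9.23, 13.3, 7.56 and 13.2 UMIs of the 8 genes per 10000, so the medians lay close together. Of 115 cells, 21 were above 100 per 10000, namely 1 of 21 untreated, 10 of 47 anti-PD-L1, 3 of 13 anti-OX40/CpG and 7 of 34 PDOX cells. They held 81.2% of the UMIs of the 8 genes in the gate. A further 22 cells held none, and 6 cells lay between 80 and 120 per 10000. With the cells above 100 left out, the ratio to the untreated library was 1.72 (1.39 to 2.14) for anti-PD-L1, 0.540 (0.322 to 0.863) for anti-OX40/CpG and 1.10 (0.818 to 1.46) for PDOX, a choice made after the values were seen. A strict gate, which asked for 3 monocyte markers and none of any other list, held only 4 untreated cells. It gave 1.58, 0.0879 and 1.45.

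**Figure D2:**
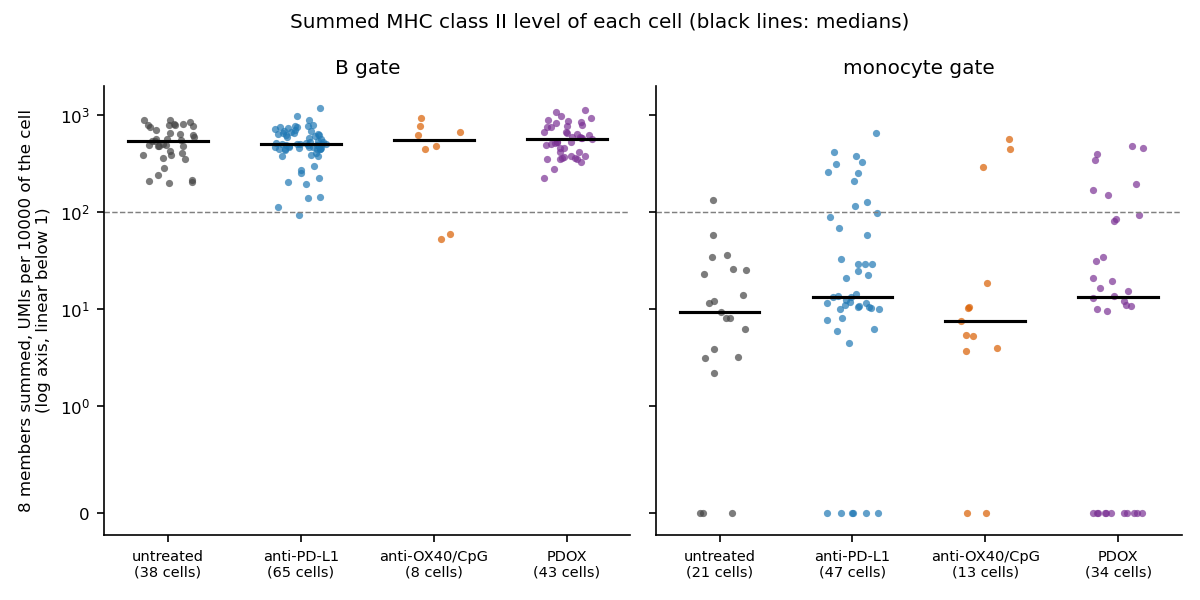
Summed level of the 8 genes in each cell of the B gate (left) and the monocyte gate (right), in UMIs per 10000 of the cell on a log axis that is linear below 1, by library. Points are cells, black lines medians and the dashed line 100 per 10000. Of the B gate cells, 151 of 154 lie above the line, and of the monocyte gate cells 21 of 115, with 1 of them untreated.

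Monocyte genes were found in the 21 high cells of the monocyte gate as in the other 94, though not all at the same level, and several of them are gate markers. *Lyz2* stood at 217 UMIs per 10000 in the 21 cells and at 332 in the others. *Csf1r*, the receptor for the growth factor of monocytes, stood at 6.68 in them and 5.71 UMIs per 10000 in the others, *Ly6c2* at 17.6 and 21.8, and *Treml4* at 3.41 and 2.79. The B cell gene *Cd79a* had 1 UMI and *Ms4a1* none in the 21 cells, and the dendritic cell gene *Flt3* had none in any of the 115. The gate itself admits fewer than 2 markers of these lists, so their scarcity is largely set by it. *Cd209a*, a gene of monocyte-derived dendritic cells, had 5 UMIs, all in 1 of the 21 cells, and 7 UMIs in 1.06% of the other 94. All 5 *Ciita* UMIs of the gate fell in the 21 cells. *H2-DMa* stood at 10.5 in them and 3.61 in the others, and *H2-DMb1* at 6.26 and 0.853.

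Blood monocytes comprise a classical subset marked by *Ly6c2* and a patrolling subset marked by *Treml4*. By the UMIs of 5 genes of each kind, 46 cells were on the Ly6c2 side, 62 on the Treml4 side and 7 on neither. High cells were found on both sides, 11 on the Ly6c2 and 8 on the Treml4 side. *H2-DMa* was higher on the Ly6c2 side in each library, at 5.06, 7.27, 5.36 and 10.02 UMIs per 10000 against 1.202, 2.78, 1.93 and 0.816. The Treml4 side values came from only 2, 14, 2 and 4 UMIs, and the Ly6c2 side held 10, 23, 7 and 6 cells. In the untreated and anti-OX40/CpG libraries the intervals of the 2 sides overlapped. The 8 genes summed were not higher on the same side in every library, with 14.1, 114, 38.4 and 157 on the Ly6c2 and 15.6, 66.6, 89.8 and 62.6 on the Treml4 side. Only the anti-PD-L1 library had 10 cells on each side, so no test was made.

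In the T gate, class II UMIs were few and followed the library. *Cd74* stood at 1.62 (1.36 to 1.91), 1.24 (1.09 to 1.40), 0.299 (0.233 to 0.378) and 0.708 (0.597 to 0.834) UMIs per 10000 in the T gate, and was found in 21.3%, 18.2%, 4.05% and 8.15% of its cells. With every cell thinned to 750 UMIs, these shares were 11.2%, 8.43%, 1.64% and 4.28%. The untreated library was the highest and the anti-OX40/CpG library the lowest. *H2-Aa* stood at 0.270, 0.246, 0.0217 and 0.0990 in the same order, *H2-Ab1* at 0.236, 0.185, 0.0303 and 0.119, and *H2-Eb1* at 0.225, 0.123, 0.0303 and 0.0644. The levels of these 4 genes were between 0.0542% and 0.523% of the level of the same gene in the B gate of the same library.

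The order of the libraries was that of the share of B cells. The B gate was 4.85%, 4.50%, 0.513% and 2.85% of the kept cells, and the monocyte gate 2.68%, 3.25%, 0.834% and 2.25%. Genes of B and myeloid cells gave like orders in the T gate. *Cd79a*, part of the B cell receptor, stood at 0.202, 0.128, 0.0217 and 0.0693, and *Lyz2*, the lysozyme of myeloid cells, at 2.83, 1.52, 0.165 and 0.589. *Lyz2* was thus highest in the untreated library, whereas the monocyte share was highest in the anti-PD-L1 library. A set of 7 B cell genes outside the gate markers, put together after the data were seen, stood at 0.258, 0.142, 0.0607 and 0.0545, with the last 2 values within their intervals. Of the 78 UMIs of this set, 31 were *Pou2af1*, which differed less between libraries, at 0.0562, 0.0474, 0.0390 and 0.0347. The part of free RNA in the T gate levels was not tested.

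*H2-DMa* did not follow the B cell share, but its order of libraries was that of the monocyte share (2.68%, 3.25%, 0.834% and 2.25%). The part of free RNA from monocytes in it was not tested. It stood at 0.899 (0.713 to 1.12), 0.976 (0.848 to 1.12), 0.676 (0.574 to 0.791) and 0.822 (0.702 to 0.957) UMIs per 10000 in the T gate, and was found in between 10.3% and 15.6% of cells. The anti-OX40/CpG library stood at 0.752 times the untreated level (0.571 to 0.997) for *H2-DMa* and at 0.185 times (0.137 to 0.248) for *Cd74*. A single untreated T gate cell held 11 UMIs of *H2-DMa*, and in every other T gate cell there were at most 4. *H2-DMb1* and *H2-DMb2* had 24 UMIs each in the T gate of all libraries, and *Ciita* 5. As a share of the B gate level, *H2-DMa* was at 11.4%, 10.4%, 9.37% and 6.34%. Per UMI of *Cd74*, the T gate held 0.556 (0.417 to 0.735), 0.789, 2.26 and 1.16 UMIs of *H2-DMa*, the B gate between 0.0231 and 0.0377, and the monocyte gate 0.419 (0.275 to 0.624), 0.0987, 0.0874 and 0.0636. The T gate ratio was thus higher than those of the B and monocyte gates in each library, beyond counting error in all but the untreated monocyte gate, where the intervals overlapped. It was not higher than that of the NK gates, which held 8 UMIs of *H2-DMa* and 4 of *Cd74* in all, a ratio of 2 (0.536 to 9.08) against 0.985 (0.880 to 1.10) in the T gates of all libraries.

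**Figure D3:**
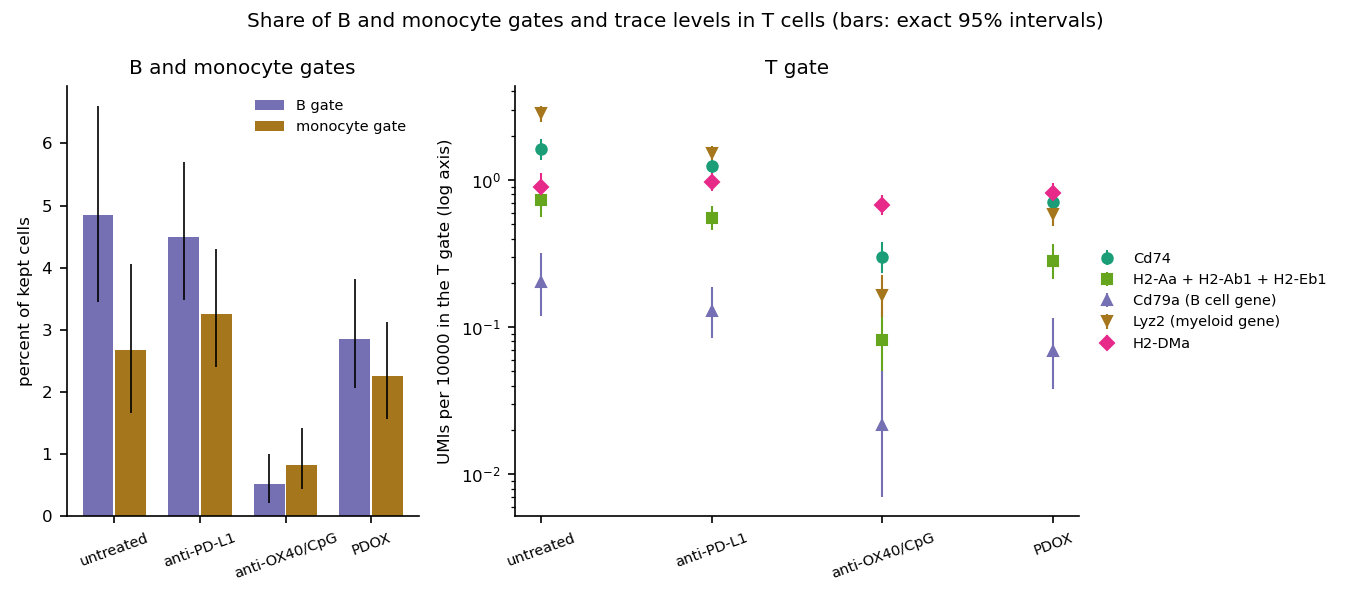
Left, the share of kept cells in the B and monocyte gates of each library, with exact 95% intervals. Right, the level of *Cd74*, the 3 classical chains summed, *Cd79a*, *Lyz2* and *H2-DMa* in the T gate, in UMIs per 10000 on a log axis, with exact Poisson 95% intervals. The first 4 are lowest in the anti-OX40/CpG library, where the B gate was 0.513% of cells. *H2-DMa* is lowest there too, in a narrower range between 0.676 and 0.976.

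The T gate was then split into 794 cells with UMIs of *Cd4* and none of *Cd8a* or *Cd8b1* and 1893 cells of the reverse. *H2-DMa* was lower in the Cd4 than in the Cd8 T cells of every library, with 0.388, 0.382, 0.392 and 0.869 against 1.27, 1.25, 0.848 and 1.14 UMIs per 10000. The values of the 2 lineages overlap across libraries through the PDOX Cd4 T cells. Among the untreated Cd8 T cells, 1 cell held 11 of the 57 UMIs of *H2-DMa*. The log2 difference of Cd4 minus Cd8 T cells was -1.06 ± 0.20 (edgeR adjusted p of 0.0012), and the adjusted p lay between 5.4e-07 and 0.054 over 10 alternatives, above 0.05 only without the replicate block. *Cd74* stood at 1.78, 1.32, 0.610 and 0.731 in Cd4 and 1.72, 1.16, 0.217 and 0.514 in Cd8 T cells. Its difference of 0.40 ± 0.19 did not pass (edgeR adjusted p of 0.25), nor did that of *H2-Aa*, at 0.19 ± 0.39 (edgeR adjusted p of 0.86). Only these 3 of the 8 genes passed the filter on low counts here. Of all 5916 genes tested, 2.94% were higher and 3.50% lower in Cd4 T cells, and of the 3 genes 0 and 1. At an unadjusted p under 0.05 there were 2, *H2-DMa* and *Cd74*, and DESeq2 too called *H2-DMa* alone.

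The trace genes of other cells had mixed orders between the lineages. *Lyz2* stood at 3.41, 1.70, 0.196 and 0.474 in Cd4 and 2.79, 1.47, 0.171 and 0.582 in Cd8 T cells, and *Cd79a* at 0.465, 0.208, 0 and 0.0592 against 0.156, 0.120, 0.0361 and 0.0406. The 7 B cell genes outside the gate markers stood at 0, 0.104, 0.0436 and 0.0790 in Cd4 and 0.313, 0.146, 0.0541 and 0.0541 in Cd8 T cells, higher in the Cd8 T cells of 3 of 4 libraries, as *H2-DMa* was in all 4, from 9 and 41 UMIs. The part of these traces in the result was not tested.

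**Figure D4:**
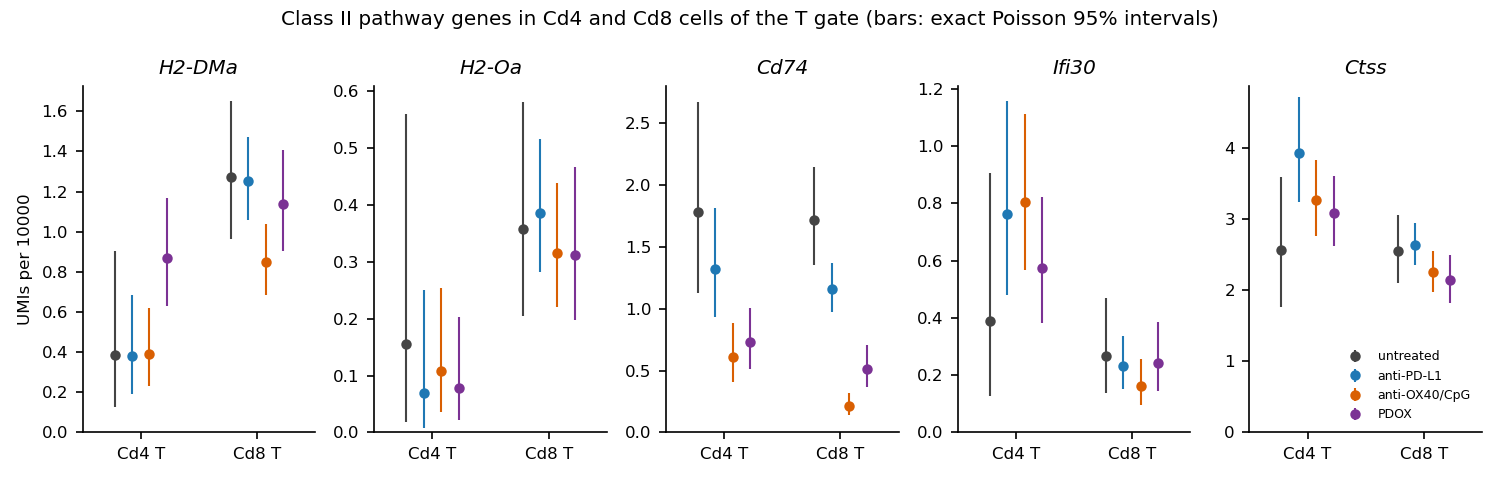
Level of *H2-DMa*, *H2-Oa*, *Cd74*, *Ifi30* and *Ctss* in Cd4 and Cd8 cells of the T gate, in UMIs per 10000, each on an axis from 0. Points are libraries with exact Poisson 95% intervals. *H2-DMa* and *H2-Oa* are higher in Cd8 T cells in all 4 libraries, *Ifi30* in Cd4 T cells in all 4, and the *Cd74* values of both lineages are highest in the untreated library.

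Of 17 further genes of the pathway, 16 are in the files and 6 passed the filter in the fit of the 4 gates. All 6 were higher in the B than in the T gate, where 14.1% of all genes were. *H2-Oa* and *H2-Ob*, the chains of H2-O, which holds back H2-M, were higher by 5.09 ± 0.35 and 5.20 ± 0.34 on the log2 scale (edgeR adjusted p of 2.2e-09 and 1.3e-09). In the monocyte gate 4 were higher than in the T gate, where 27.8% of all genes were, among them *Ctss*, a protease that degrades the invariant chain, by 3.15 ± 0.20, and *Ifi30*, a reductase of endosomal antigens, by 4.14 ± 0.24 (edgeR adjusted p of 9.7e-11 and 1.3e-11). *H2-Ob* was lower there, where 25.8% of all genes were, with 1 UMI in the monocyte gates (-2.94 ± 1.21, edgeR adjusted p of 0.049), a call that 5 of 10 alternatives made. Against the monocyte gate, *H2-Oa* and *H2-Ob* were higher and *Ctss* lower in the B gate (edgeR adjusted p of 1.1e-07, 6.4e-08 and 1.2e-05). *Ctss* was also lower in the NK than in the T gate, by 3.36 ± 0.54 on the log2 scale (edgeR adjusted p of 0.00013). The pathway genes that did not pass the filter were compared between the B and T gates in at most 2 alternatives. There *Rfxap*, *Rfxank* and *Nfyc* were lower in the B gate, by log2 differences between -1.73 and -1.40, with *Rfxap* called in 1. *Cd83*, *Cd86*, *Creb1*, *Nfya*, *Rfx5* and *H2-Eb2* were higher, with *Cd83* and *Cd86* called in both and *Rfx5* in 1, and *Nfyb* had either sign.

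In Cd4 against Cd8 T cells, 10 of the 16 genes passed the filter, and 2 were higher and 1 lower, where 2.94% and 3.50% of all genes were. *H2-Oa* was lower by 1.86 ± 0.35 on the log2 scale (edgeR adjusted p of 0.0012), with 13 UMIs in the Cd4 and 119 in the Cd8 T cells. *Ifi30* was higher by 1.57 ± 0.26 and *Ctss* by 0.41 ± 0.10 (edgeR adjusted p of 0.00031 and 0.014). *H2-Oa* lost its call in 1 of 9 alternatives, DESeq2 (adjusted p of 0.052), and *Ctss* in 5 of 10, while *Ifi30* kept it in 10 of 10. *H2-Ob* did not pass, at -0.17 ± 0.30 (edgeR adjusted p of 0.83), and neither did the promoter factor genes *Rfxap*, *Rfxank*, *Creb1*, *Nfyb* and *Nfyc*.

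The genes whose level was most like the 8 genes summed, over 16 profiles of the 4 gates in the 4 libraries and 7362 genes with the gate markers left out, were *Serp1* (Pearson r of 0.95), *Pkig*, *Lmo2*, *Bcl11a*, *Rnase6*, *Ctsh*, *H3f3a*, *Ncf1*, *Napsa* and *Ly86* (0.89). This is a description across gates that share libraries, and B cells lead it. *Pkig* stood between 3.93 and 6.53 UMIs per 10000 in the B gates, between 0.857 and 1.68 in the monocyte gates and at most 0.0616 in the T gates. *Ctsh*, a cathepsin, stood between 4.36 and 7.58 in the B and 6.00 and 7.14 in the monocyte gates.

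Of the 648 cells that no gate took, 521 had fewer than 2 markers of every list, and 15 stood above 100 UMIs of the 8 genes per 10000. These 15 held 2229 of the 3114 UMIs that fell outside the gates. Among them, 6 had at least 2 B and 2 T markers, and 6 had at least 2 monocyte and 2 dendritic cell markers. They were spread over all libraries, with 4, 3, 3 and 5 cells. Whether such cells are doublets was not tested.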

How the data were processed

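Blood T cells were profiled by 3′ sequencing on the Chromium platform, and the authors deposited raw UMI counts for each gene in each barcode. The submitters' processing notes name mm10 and Seurat 2. How reads shared by paralogs were counted is not given in the sources used here. Barcodes with at least 200 genes were kept, 4665 of which had at least 750 UMIs for thinning, and totals exclude 13 genes of the mitochondrion, 102 of the ribosome and 10 of hemoglobin. Deposited UMIs per library summed to between 2392650 and 4969885. Cells were gated by at least 2 markers of a list. No doublet caller was run, and cells with at least 2 markers of more than 1 list stayed outside the gates. Levels carry exact Poisson and shares exact Clopper-Pearson 95% intervals, which cover counting error only. With 1 library per treatment, treatments were not tested.

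UMI counts were summed per library and gate, for gates with at least 10 cells, and tested with edgeR 4.0.16 (R 4.3.3, quasi-likelihood, TMM, library as block, Benjamini-Hochberg adjustment with a threshold of 0.05). The p-values measure the spread over at most 4 libraries that also differ in treatment. In the fit of the 4 gates, all gates share this spread. The anti-OX40/CpG B gate and the anti-PD-L1 NK gate did not enter it. The library pairs its gates because they come from the same blood sample. DESeq2 1.42.0 and the alternatives of the closing section were run beside it, and the code was tested on simulated data. Intervals were made with Python 3.11.15 and scipy 1.17.1.

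Named are the 8 genes, 17 other pathway genes, and the 10 genes with the highest Pearson correlation to the summed genes (log2 of UMIs per 10000 plus 0.1, at least 100 UMIs, gate markers left out). The genes and lists were chosen with earlier results of these data known. Of the listed genes, 7 were not found by symbol in the gene list used here, among them the immunoglobulin genes meant as B cell traces, for which 7 other B cell genes were taken.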

Additional observations from a re-analysis of the deposited data

Results flagged for a closer look

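Barcodes with fewer than 200 genes entered no comparison. In the untreated library, 78 such barcodes held 9 UMIs of the 8 class II genes, or 13.7 per 10000 (exact Poisson 95% interval 6.28 to 26.1). This is a signal in data the comparisons did not use and is above the limit of 3 UMIs. The kept cells of that library had a higher rate, with 3881 such UMIs in 1224682. Barcodes under 200 genes in the other libraries held 2, 0 and 1 UMIs of the 8 genes, or 20.2, 0 and 4.20 per 10000. Among these barcodes the rate in the anti-PD-L1 library was thus the higher one, on 2 UMIs. None of the 9 UMIs was *H2-DMa*, and the 1 UMI of the PDOX library was.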

How the results depend on the processing

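The direction and call of the tested genes held under most alternatives, and the cause was not tested where they did not. DESeq2 called 1 gene higher in the NK than in the T gate, and without the replicate block 0 genes were lower in Cd4 T cells (*H2-DMa* at -1.08, edgeR adjusted p of 0.054). The block changed no other call of the 8 genes. Leaving out a library in turn gave 7 to 8 genes higher in the B than in the T gate, 6 to 7 in the monocyte than in the T gate, 6 to 7 in the B than in the monocyte gate, 0 for the NK gate and 1 lower in Cd4 T cells. Of the genes that missed the threshold, some log2 differences changed sign. *H2-DMb2* between the monocyte and T gates was 0.39 with DESeq2 and lay between -4.28 and 0.93 (without the anti-PD-L1 library) with a library left out, and *H2-DMb1* between the B and monocyte gates lay between -0.083 (without the untreated library) and 0.75. Between the NK and T gates, *H2-DMb2* was 0.84 with DESeq2. *H2-Eb1* was -0.19 without a filter, -0.15 without the block, -0.18 with only both gates fitted and between -5.02 (without the untreated library) and 0.65 with a library left out. *H2-DMa* was 0.010 with all genes kept, 0.32 in the strict gate and between -0.30 and 0.11 (without the anti-OX40/CpG library). *H2-Aa* was 1.32 in the strict gate, between -5.63 and 0.11 (without the PDOX library) with a library left out, and 0.060 without the anti-OX40/CpG library. *H2-Aa* between Cd4 and Cd8 T cells was -0.13 without the block.

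Ratios to the untreated library moved most. The strict gate asked here for 3 markers of its own list and none of any other. In the B gate, it gave 1.08 for anti-PD-L1, 1.34 for anti-OX40/CpG and 1.27 for PDOX. Keeping all genes gave 0.946 for anti-PD-L1 and 1.08 for PDOX, and thinning gave 0.953 for anti-PD-L1 and 0.827 for anti-OX40/CpG. Without the 5% of cells with the most UMIs the anti-OX40/CpG ratio was 1.01, and without cells under 100 it was 1.26. In the monocyte gate, the strict gate gave 1.58, 0.0879 and 1.45, and leaving out the 5% gave 3.03, 7.86 and 6.85. Thinning gave 3.29 for anti-PD-L1 and 3.50 for PDOX, and leaving out cells over 100 gave 1.72, 0.540 and 1.10. Few cells are behind these, with 4 untreated monocytes in the strict gate.

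Over all genes, counts of higher and lower calls were 291 and 276 between the B and T gates, 355 and 551 without a filter, 417 and 659 with only both gates fitted, and 190 and 151 without the anti-PD-L1 library. Between the monocyte and T gates they were 574 and 532, against 1093 and 1182 without a filter, 339 and 267 in the strict gate and 939 and 811 with only both gates. For NK and T they were 154 and 204, 171 and 393 without a filter, 100 and 102 without the anti-OX40/CpG library and 192 and 134 with DESeq2. The median log2 difference of NK against T over all genes was -0.14 with TMM and -0.03 with DESeq2's size factors. For B and monocyte they were 398 and 474, 236 and 291 in the strict gate and 235 and 273 without the anti-PD-L1 library. For Cd4 and Cd8 T cells they were 174 and 207, 66 and 93 with DESeq2 and 46 and 67 without the block. The monocyte sides could not be tested, so their alternatives were not run.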
